A study of Rattus norvegicus with 3 samples.

Results

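A set of 8 immediate early genes was examined, the nuclear receptor genes Nr4a1, Nr4a2 and Nr4a3, the zinc finger genes Egr1, Egr2 and Egr3, and the immediate early response genes Ier2 and Ier3. Their members were all probe sets that the platform annotation maps to 1 of these symbols alone, which gave 12 of 31099 probe sets and 8 of 14218 genes. Nr4a3 had 3 probe sets, Nr4a2 and Egr2 had 2 each, and the other genes had 1.

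RNA came from cultured granulosa cells, the steroid-producing cells around the oocyte. They were taken by follicle puncture from immature Sprague-Dawley female rats aged 24 to 25 days, 48 h after a dose of PMSG (pregnant mare's serum gonadotropin), which drives follicles to the preovulatory stage. The cells of all groups carried an adenovirus at 50 pfu per cell, which was washed off after 2 h. The Ad-GFP group received the green fluorescent protein virus and no stimulus; the Ad-GFP + FSK/PMA group received the same virus and, from 24 h after infection, 10 uM forskolin (FSK) and 20 nM phorbol 12-myristate 13-acetate (PMA) for 6 h; the Ad-NFIL3 + FSK/PMA group received a virus for the transcription factor NFIL3 and the same stimulus. Forskolin activates adenylyl cyclase, PMA activates protein kinase C, and together they stand in for the ovulatory hormone. Each group had 1 Affymetrix array of RNA pooled from 3 experiments, so no difference below has a replicate check or a p-value. Which promoter drives the viral inserts was not given in the labels.

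Immediate early genes are transcribed within minutes of a signal, from promoters already occupied by factors such as CREB, which binds the cAMP response element (CRE), and serum response factor, which binds the CArG box. The NR4A receptors have no known need for a hormone ligand, and they bind the NBRE element as monomers. EGR factors bind GC-rich sites through 3 zinc fingers and induce their own corepressor, NAB2. In the ovary this class of genes is known to respond to the luteinizing hormone surge in granulosa cells. NFIL3 is a basic leucine zipper repressor that shares its binding sites with the PAR bZIP activators.

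The promoter windows of the early genes were read first, since these genes are known for CRE and CArG elements near their start. The RefSeq promoter table (GRCr8, 250 bases before to 50 after the gene start) held 5 of the 8 genes, Nr4a1, Nr4a2, Egr1, Egr2 and Ier2. The windows of Nr4a1, Egr2 and Ier2 are printed 5′ to 3′ because they differ in which of these elements they hold. Capitals mark the CRE core (TGACG, or its reverse complement), the full CRE (TGACGTCA) and the CArG box. They lie at chr7:134259888-134260187 (plus strand), chr20:21054392-21054691 (minus strand) and chr19:40399123-40399422 (plus strand).
Nr4a1: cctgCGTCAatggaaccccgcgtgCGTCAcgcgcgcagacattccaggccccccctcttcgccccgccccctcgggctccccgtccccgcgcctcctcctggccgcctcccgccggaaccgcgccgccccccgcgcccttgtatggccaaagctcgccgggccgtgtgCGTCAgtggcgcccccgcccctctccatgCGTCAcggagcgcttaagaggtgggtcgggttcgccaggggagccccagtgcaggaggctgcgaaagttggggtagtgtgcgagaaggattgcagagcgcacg
Egr2: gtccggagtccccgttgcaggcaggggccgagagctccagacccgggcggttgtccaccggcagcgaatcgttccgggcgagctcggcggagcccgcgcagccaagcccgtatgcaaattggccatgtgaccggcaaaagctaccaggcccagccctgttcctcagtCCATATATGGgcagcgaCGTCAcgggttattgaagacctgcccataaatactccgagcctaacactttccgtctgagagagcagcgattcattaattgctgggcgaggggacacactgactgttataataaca
Ier2: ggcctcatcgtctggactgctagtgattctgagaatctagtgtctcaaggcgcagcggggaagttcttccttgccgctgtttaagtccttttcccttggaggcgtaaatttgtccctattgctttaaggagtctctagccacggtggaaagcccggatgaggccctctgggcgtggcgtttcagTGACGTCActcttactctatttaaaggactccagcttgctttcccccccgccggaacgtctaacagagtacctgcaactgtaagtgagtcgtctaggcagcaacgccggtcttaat

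The CRE core was present in all 5 windows, on either strand, and in 21.2% of the 33469 promoter windows of the same length. Nr4a1 had 4 matches, all on the minus strand, which began at -246, -226, -82 and -53 from the gene start. Egr1 had 2, Nr4a2 and Egr2 had 1 each, and the 2 matches of Ier2 overlapped within 1 full CRE that began at -66. The full CRE was present in 1.83% of all windows. CArG boxes were present in Egr1, which had 2, and in Egr2, which had 1 at -83, against 1.64% of all windows.

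One match to the EGR site (GCGNGGGCG) was found, in the Nr4a1 window at -73, against 4.98% of all windows. The NBRE (AAAGGTCA, 1.43% of all windows), the NFIL3 and PAR bZIP sites TTACGTAA (0.120%) and TTATGTAA (0.893%) and the AP-1 site (TGANTCA, 7.33%) had no match in the 5 windows. All motifs were searched on both strands; each CRE holds 2 overlapping CRE cores. A match is a stretch of letters in this window and no measurement of binding.

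**Figure D1:**
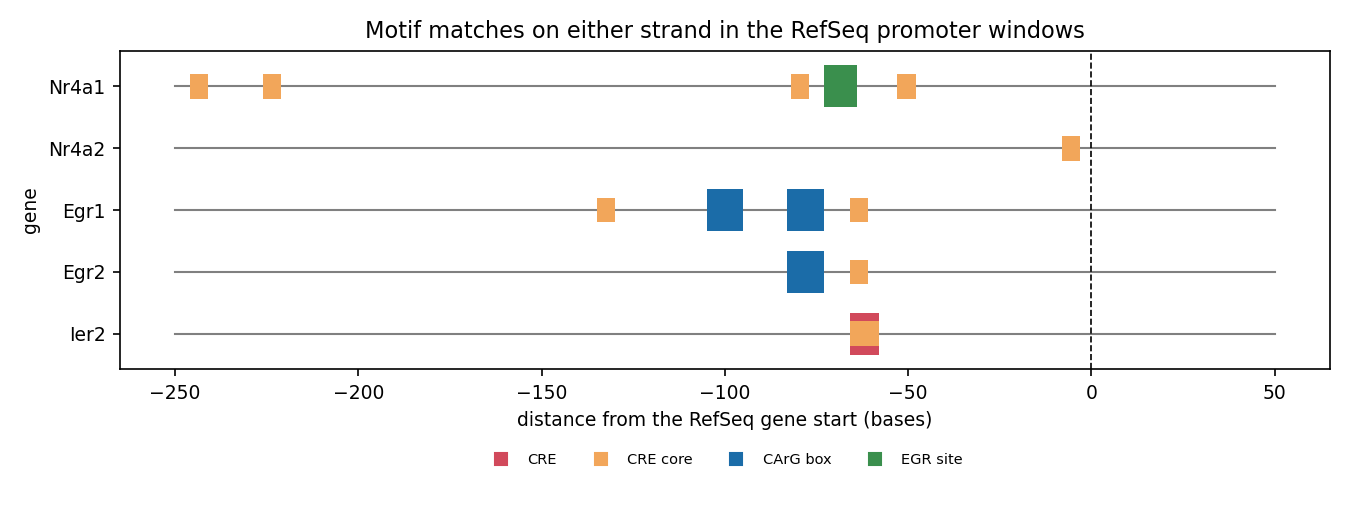
Matches to the searched motifs in the RefSeq promoter windows of 5 genes; the x axis is the distance from the gene start in bases (dashed line, the start) and each box spans 1 match on either strand. Nr4a1 holds 4 CRE cores and 1 EGR site, Egr1 and Egr2 hold CArG boxes beside a CRE core, and Ier2 holds 1 full CRE.

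The arrays were checked before the members were read. The deposited columns had medians of 115 to 136, and 48.1% to 51.8% of probe sets were above the floor, a signal of 126, below which values were set to 126. Nfil3 had signals of 564, 1321 and 5882 on the Ad-GFP, Ad-GFP + FSK/PMA and Ad-NFIL3 + FSK/PMA arrays; which part of the transcript its probe set reads is not known here, so viral and cellular transcript cannot be told apart. Of 7 granulosa markers on the array none was below the floor on all arrays, and their summed scaled signal was 72905, 60102 and 32436 in the same order. Most of this sum was Inha (26489, 29911 and 18604) and Inhba (29368, 21912 and 8520), so it mainly follows these genes. Other granulosa markers took other courses, such as Nr5a2 (5506, 1837 and 1913) and Cyp19a1 (120.1, 2490 and 992). Of the theca and stroma markers, Cyp17a1 and Insl3 were below the floor on all 3 arrays, as were the leukocyte marker Ptprc and the endothelial marker Pecam1; of 4 oocyte markers, 3 were. All other markers of these types were above the floor on some or all arrays, so these cells cannot be called absent. Examples are Lyz2 (1110, 769 and 970) and Cd14 (606, 1488 and 1562) of leukocytes and Col3a1 (395, 331 and 341) of stroma. Kdr of endothelium had 190, 180 and 138, and Zp2 of the oocyte had 891, 406 and 269. The summed signal of the 6 theca and stroma markers was 909, 744 and 1177, that of the 5 leukocyte markers was 2186, 2809 and 3118, that of the 3 endothelial markers was 313, 410 and 406, that of the 4 oocyte markers was 956, 567 and 398, and that of the 2 red cell markers was 19929, 18360 and 15708. The part of these cell types in the differences below was not tested, and in pooled RNA fewer expressing cells and less RNA per cell cannot be told apart.

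The first comparison, Ad-GFP + FSK/PMA over Ad-GFP, asked how strongly the early genes differed after 6 h of stimulation. No other time was sampled, so the differences describe levels at 6 h and do not measure the peak of induction. Nr4a1 and Nr4a3 stood furthest apart, at 19.0-fold and at least 18.7-fold higher, followed by Ier2 and Ier3 at 5.99-fold and 4.32-fold higher. The place of Nr4a3 depended on the probe set and the floor. Its log2 difference was 2.23 with the mean of its probe sets and 2.11 with a floor at the 75th percentile. Ier2 was at 2.58 in both settings. Nr4a2, Egr1 and Egr2 were 3.13-fold, 2.54-fold and 2.06-fold higher. Of the 8 genes, 7 were 2-fold or more higher and 0 were 2-fold or more lower; among all 9395 measured genes these shares were 7.43% and 11.4%. A gene counts as measured when at least 1 of the 2 arrays was above the floor; Nr4a3 met this through the stimulated array alone, and Egr3 did not meet it.

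**Figure D2:**
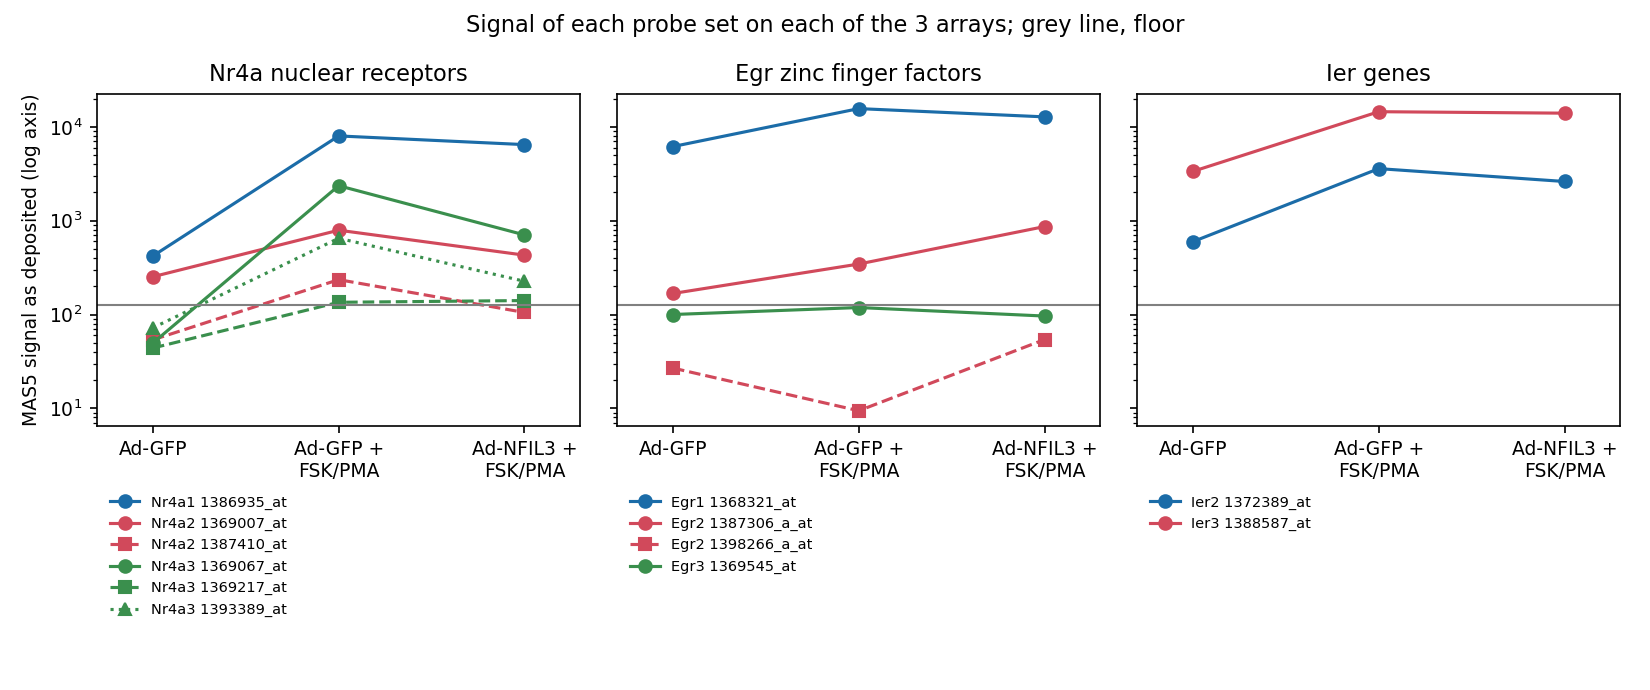
MAS5 signal of each of the 12 probe sets (y axis, log scale) on each of the 3 arrays (x axis); 1 point is 1 array, lines join the values of a probe set, and the grey line is the floor of 126. Nr4a1 stayed high on the Ad-NFIL3 array, the 2 brighter Nr4a3 probe sets and the brighter Nr4a2 probe set were lower there, and the brighter Egr2 probe set was highest there; signals of different probe sets are not comparable with each other.

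Among the NR4A receptors, Nr4a1, which encodes the receptor also called NUR77, had signals of 421 on the Ad-GFP array, 7994 on the Ad-GFP + FSK/PMA array and 6462 on the Ad-NFIL3 + FSK/PMA array. Both stimulated arrays lay far above the unstimulated one. The log2 difference with FSK/PMA was 4.25, the 19th highest of 9395 measured genes.

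Nr4a3, which encodes the receptor NOR1, had signals of 49.7, 2357 and 705 in its brightest probe set (1369067_at, made from the reference transcript). The unstimulated value was below the floor, so the log2 difference of 4.23 is a lower bound. A probe set designed on an expressed sequence tag (1393389_at) had signals of 72.2, 650 and 226 and was at least 5.16-fold higher with FSK/PMA. The last probe set (1369217_at) had signals of 44.0, 135 and 141, at most slightly above the floor on both stimulated arrays, and its bound was 1.07-fold. The 3 probe sets were all below the floor without stimulus and all above it with stimulus, but the size of the difference depended on the probe set. Each counts as measured with FSK/PMA only through the stimulated array, so their shared direction is no added support.

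Nr4a2, which encodes NURR1, had signals of 253, 791 and 429 in its brighter probe set (1369007_at). Its second probe set (1387410_at) had signals of 53.8, 235 and 105, above the floor on the Ad-GFP + FSK/PMA array alone, and was at least 1.87-fold higher with FSK/PMA. This second probe set counts as measured only through the array where it was high, so its direction is no support for the first. With a floor at the 75th percentile the Nr4a2 log2 difference with FSK/PMA was 0.53 in place of 1.65. The gap between the FSK/PMA differences of Nr4a2 and Nr4a1 was -2.60 log2 units. The disagreement between 2 probe sets of 1 gene, over 1590 genes measured on both arrays, gave a robust SD of 0.33 per log2 difference in this comparison, or 0.46 for the gap between 2 genes. This technical spread leaves out error shared by a whole array or RNA pool and all biological variation. It can also hold differences in what the 2 probe sets read. It is a single value over genes of all signal levels and was not matched to dim probe sets, so multiples of it are rough for these.

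Egr1, which encodes the best known EGR factor, had signals of 6161, 15629 and 12762. It was far above the floor without added stimulus too, and was 2.54-fold higher with FSK/PMA. Egr2, also called Krox-20, had signals of 168, 345 and 865 in its brighter probe set (1387306_a_at), with the unstimulated array close to the floor. Its FSK/PMA log2 difference of 1.04 was 0.98 without a floor, and 0.52 with the mean of both probe sets. Its other probe set (1398266_a_at) had signals of 26.9, 9.44 and 54.1, below the floor throughout, and gave no difference. Egr3 had signals of 100.02, 119 and 96.3, below the floor on all 3 arrays, and so gave no difference either.

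Ier2, which encodes a nuclear protein of the immediate early response, had signals of 598, 3585 and 2614. Ier3, which encodes a short-lived protein tied to survival and NF-kB signalling, had signals of 3353, 14488 and 13975. For both genes the stimulated arrays were at least 4-fold above the unstimulated one. Of the 7 measured genes, Nr4a1, Nr4a3, Ier2 and Ier3 lay above the central 95% of all measured genes, whose upper limit was 1.73 log2 units, while Nr4a2 (1.65), Egr1 (1.34) and Egr2 (1.04) lay inside it.

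The second comparison, Ad-NFIL3 + FSK/PMA over Ad-GFP + FSK/PMA, asked whether the stimulated level of the early genes differed with NFIL3 overexpression. Genes of 1 family differed by unequal amounts. Nr4a3 was 3.34-fold lower and Nr4a2 was 1.84-fold lower with NFIL3, whereas Nr4a1 was 1.24-fold lower. Egr2 was 2.51-fold higher, whereas Egr1 was 1.22-fold lower. Ier2 was 1.37-fold lower and Ier3 was 1.04-fold lower. Of the 8 genes, 1 was at least 2-fold higher and 1 at least 2-fold lower, where 1.34% and 0.958% of 9397 measured genes were. This comparison shares the Ad-GFP + FSK/PMA array with the first, so a deviation of that array enters both with opposite sign.

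**Figure D3:**
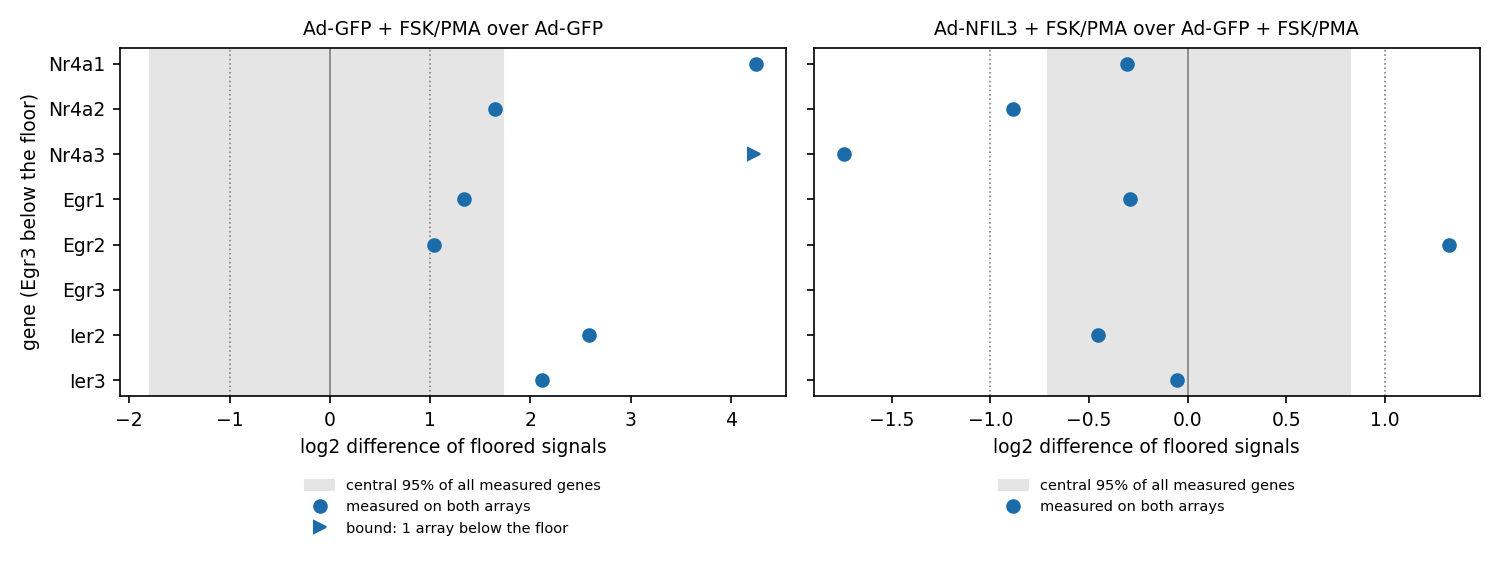
Log2 differences (x axis) of the probe set that stands for each gene (y axis), with FSK/PMA on the left and with NFIL3 on the right; 1 array per group, grey band the central 95% of all measured genes, dotted lines 2-fold, triangle a lower bound. With FSK/PMA all 7 measured genes are at 2-fold or more, and with NFIL3 Nr4a3 (-1.74), Nr4a2 (-0.88) and Egr2 (1.33) are outside the band.

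Within the NR4A family the NFIL3 array held 80.8% of the Nr4a1 signal of the Ad-GFP + FSK/PMA array, 54.2% of the Nr4a2 signal and 29.9% of the Nr4a3 signal. On the log2 scale the gap between the NFIL3 differences was -1.43 for Nr4a3 minus Nr4a1, -0.86 for Nr4a3 minus Nr4a2 and -0.58 for Nr4a2 minus Nr4a1. The robust SD between probe sets was 0.23 per log2 difference in this comparison (1654 genes), or 0.33 for a gap between 2 genes, so these gaps were 4.34, 2.60 and 1.74 times that technical spread. Over the alternative settings the gap between Nr4a3 and Nr4a1 ranged from -1.52 to -0.76, and that between Nr4a3 and Nr4a2 from -1.21 to -0.18. For both gaps the smallest size came with the mean over all probe sets of a gene, which includes the Nr4a3 probe set near the floor.

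Probe sets of a gene were then compared. The 2 brighter Nr4a3 probe sets were lower with NFIL3, by log2 differences of -1.74 (1369067_at) and -1.52 (1393389_at), and kept 29.9% and 34.8% of their signal. The dim one (1369217_at) differed by 0.06, at signals of 135 and 141. Of the Nr4a2 probe sets, 1369007_at was lower by a log2 difference of -0.88. The other, 1387410_at, was above the floor only on the Ad-GFP + FSK/PMA array, so it counts as measured only through the array where it was high, and its direction is no support for the first.

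Egr2 differed in the opposite direction. Its brighter probe set, at 345 with FSK/PMA alone and 865 with NFIL3, gave a log2 difference of 1.33, the 30th highest of 9397 measured genes, and the difference exceeded that of Egr1 by 1.62, which was 4.90 times the technical spread. Over the alternative settings this gap ranged from 0.95 to 1.62. The second Egr2 probe set, below the floor, was also brightest on the NFIL3 array, at 54.1, which is no measured difference. The call of 2-fold for Egr2 thus rests on 1 probe set, and it was lost with a floor at the 75th percentile (log2 difference 0.66) and with the mean of both probe sets (0.66).

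Egr1, Nr4a1, Ier2 and Ier3, with log2 differences of -0.29, -0.31, -0.46 and -0.05, lay inside the central 95% of all measured genes, which ran from -0.71 to 0.82. Of these, Ier2 was 1.95 times the robust SD of 0.23 from zero, Nr4a1 1.31 times, Egr1 1.25 times and Ier3 0.222 times. The sign of Ier3 turned with quantile normalisation, while the other 6 measured genes kept their sign in every setting tried. Scaling the arrays to a common median moved the median of all measured genes from 0.03 to -0.20 and the members with it; Nr4a2 was then 2.17-fold lower.

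Set against the unstimulated Ad-GFP array, the Ad-NFIL3 + FSK/PMA array still held 15.4-fold more Nr4a1 signal, 4.37-fold more Ier2 signal, 4.17-fold more Ier3 signal and 2.07-fold more Egr1 signal. Nr4a3 was at least 5.60-fold higher there, and Nr4a2 was 1.70-fold higher. Egr2 was 5.16-fold higher, so it was the gene of the 7 whose signal was greatest on the NFIL3 array; for the other 6 the Ad-GFP + FSK/PMA array was the brightest in the deposited values.

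Relatives and partners of these genes were described from fixed lists. The list of EGR and IER relatives held Nab1, Nab2, Egr4, Ier5 and Ier5l. Nab2, the corepressor that EGR factors induce, had signals of 433, 1962 and 1507, 4.53-fold higher with FSK/PMA and 1.30-fold lower with NFIL3. Nab1 was within 2-fold in both comparisons, and Egr4 was below the floor on all arrays. Ier5, a relative of Ier2, had signals of 323, 1743 and 3001, 5.40-fold higher with FSK/PMA, and was 1.72-fold higher again with NFIL3. Of 3 measured members of this list, 2 were at least 2-fold higher with FSK/PMA, against 7.43% of all measured genes. The median log2 difference was 2.18 beside -0.10 for all measured genes. With NFIL3, 0 of 4 were past 2-fold in either direction, with a median of 0.07 beside 0.03. Of all measured genes, 1.34% were past 2-fold higher with NFIL3 and 0.958% lower.

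Among 20 measured genes of the list of other immediate early genes, 12 were past 2-fold higher with FSK/PMA and 1 was past 2-fold lower. Among all measured genes these shares were 7.43% and 11.4%. The median log2 difference of the list was 1.28. Crem, which encodes cAMP-responsive activators and repressors, was 8.50-fold higher, and Per1, a clock gene with CREB-bound promoter, was 5.09-fold higher. Dusp1, a MAP kinase phosphatase, was 3.98-fold higher, and Zfp36, which destabilises AU-rich messages, was 3.97-fold higher. The gene past 2-fold in the other direction was Ccn2, a matricellular protein gene, 2.50-fold lower; it was chosen for mention after its value was seen. With each gene read from its brightest probe set and this floor, Nr4a1 and Nr4a3 had larger FSK/PMA differences than any gene of this list, and Egr1 at 1.34 lay close to Fos, the AP-1 subunit gene, at 1.32 (chosen for mention after its value was seen).

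With NFIL3, 0 of 19 measured genes of that list were past 2-fold, and the median was -0.10. Among all measured genes only 1.34% were past 2-fold higher and 0.958% lower, so a count of 0 says little about the list. The AP-1 subunit gene Fosl2 was 1.82-fold lower, Ccn2 1.78-fold lower, Crem 1.61-fold lower and Sik1, a salt-inducible kinase gene, 1.53-fold lower. Nr4a3 at -1.74 and Egr2 at 1.33 thus lay outside the range of the list, which had Fosl2 (-0.86) as its lowest and Gem (0.61), a small GTPase gene named here for that value, as its highest. The values of Atf3 (-0.49) and Maff (-0.01) are bounds, because the NFIL3 array was below the floor. The low end of the range thus depends on the floor.

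**Figure D4:**
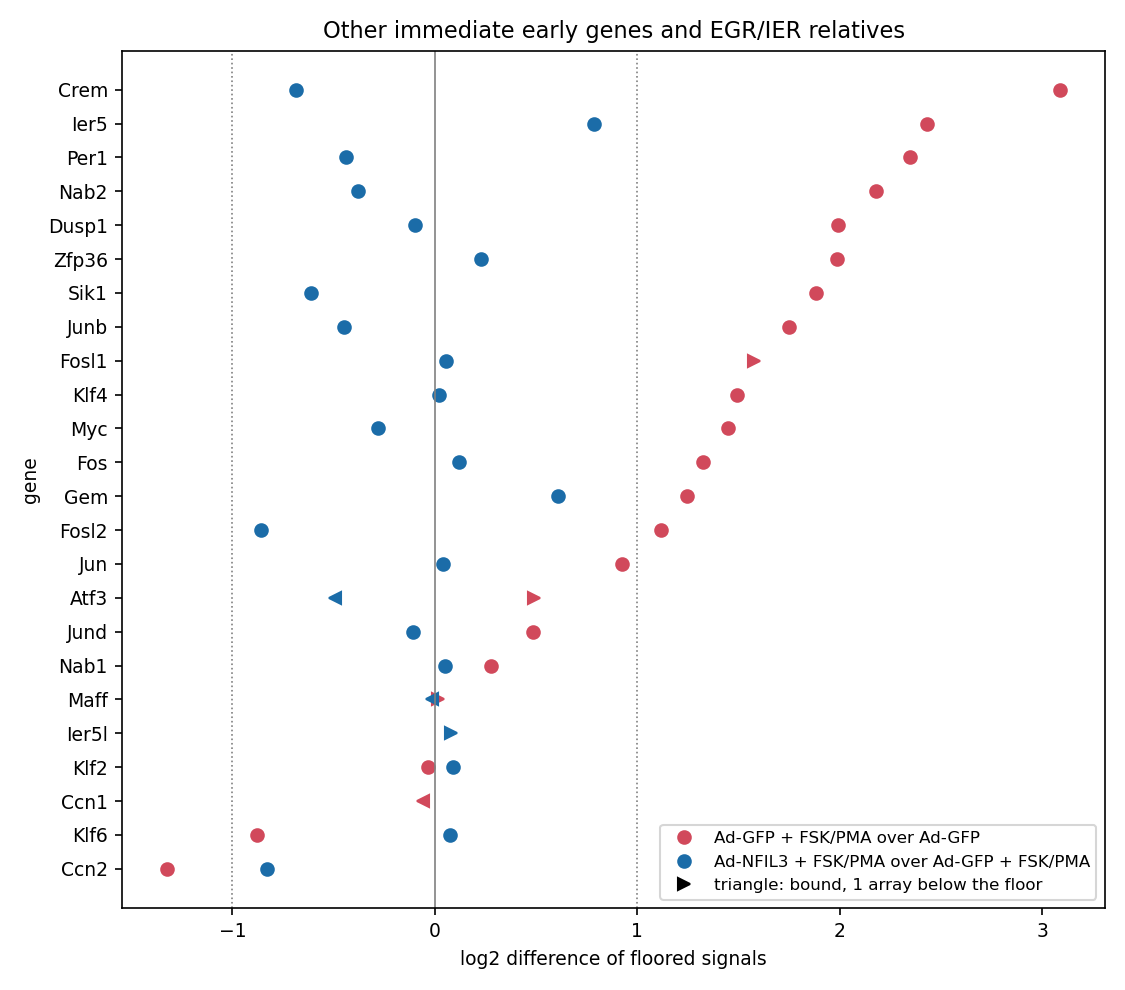
Log2 differences (x axis) of the measured genes of the lists of other immediate early genes and of EGR and IER relatives (y axis), red with FSK/PMA and blue with NFIL3; 1 array per group, dotted lines 2-fold, triangles bounds. Red points reach 3.09 for Crem, whereas all blue points lie within 2-fold, from Fosl2 (-0.86) to Ier5 (0.78).

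The factors that act upstream of EGR and IER promoters were read next. Of 5 measured genes for serum response factor and its partners, 0 were past 2-fold in either comparison, with medians of 0.26 with FSK/PMA and -0.08 with NFIL3. Among all measured genes 7.43% were past 2-fold higher and 11.4% lower with FSK/PMA. With NFIL3 these shares were 1.34% and 0.958%. Srf itself had signals of 1312, 1709 and 2105, higher by 0.38 with FSK/PMA and by a further 0.30 with NFIL3 on the log2 scale. Among the ternary complex factor genes, Elk3 differed by at least 0.26 with FSK/PMA and by 0.42 with NFIL3, Elk1 by -0.30 and -0.25, and Elk4 by 0.33 and -0.10.

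Of the nuclear receptors that pair with NR4A proteins or bind related sites, 4 were measured. With FSK/PMA 3 of these were lower by 2-fold or more, against 11.4% of all measured genes, with a median of -1.27. Nr5a2, the gene of liver receptor homolog 1, was 3.00-fold lower, Nr5a1, the gene of steroidogenic factor 1, was 2.83-fold lower, and Nr2f2, the gene of COUP-TFII, was 2.05-fold lower. Rxrb, a retinoid X receptor gene, was 1.92-fold lower, and Rxra and Rxrg were below the floor on all arrays. With NFIL3, 0 of 4 were past 2-fold, with a median of 0.24, where 1.34% of all measured genes were past 2-fold higher and 0.958% lower. Nr4a1 and Nr4a3 signals were thus higher, and Nr5a1 and Nr5a2 signals lower, on the stimulated Ad-GFP array.

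Of the genes known as NR4A targets elsewhere, Cyp17a1, Cyp21a1, Insl3 and Pomc were below the floor on all arrays. With FSK/PMA, 2 of 3 measured ones were 2-fold or more higher and 1 was 2-fold or more lower, with a median of 2.29. The shares over all measured genes were 7.43% and 11.4%. Star, the cholesterol carrier gene, had signals of 7352, 35938 and 22231, and Cyp19a1, the aromatase gene, had signals of 120.1, 2490 and 992. With NFIL3 these 2 genes were 1.62-fold and 2.51-fold lower, a median of -1.01. Nr0b1, the gene of the corepressor DAX1, had signals of 1207, 70.9 and 51.9, at least 9.59-fold lower with FSK/PMA.

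Of the genes known as EGR1 targets, 4 of 9 measured ones were past 2-fold higher with FSK/PMA and 1 was past 2-fold lower. The shares over all measured genes were 7.43% and 11.4%. The median log2 difference of these targets was 0.95. Plaur, the urokinase receptor gene, was 13.0-fold higher, Tgfb1, a growth factor gene, was 6.16-fold higher, and Nab2 was the next at 4.53-fold. Ptges, a prostaglandin E synthase gene, was at least 5.80-fold lower. With NFIL3, 1 of 9 was past 2-fold higher and 0 were past 2-fold lower, with a median of 0.06. Over all measured genes these shares were 1.34% and 0.958%. The 1 target past 2-fold was Fn1, fibronectin, with signals of 182, 353 and 1833, 5.19-fold higher. Pdgfa, a growth factor gene, was 1.88-fold higher and F3, the tissue factor gene, was 1.83-fold lower, while Cd44, the hyaluronan receptor gene, was 1.41-fold higher.

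Genes with the most similar pattern over the 3 arrays were sought among 6366 genes that reached 4 times the floor on some array, by the distance between their 2 log2 differences and those of a member. Nearest to Nr4a3 were Adcyap1, the gene of the neuropeptide PACAP, at a distance of 0.28 log2 units, Runx1, a transcription factor gene, at 0.41, and Cyp19a1 at 0.42. Adcyap1 had signals of 79.2, 2492 and 621, and Runx1 had 587, 11635 and 4598. Each was high on the Ad-GFP + FSK/PMA array and at an intermediate level with NFIL3. Nr4a3, Adcyap1 and Cyp19a1 were below the floor on the Ad-GFP array, so their FSK/PMA differences are lower bounds set by the same floor, and the distances between them depend on it.

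Nearest to Nr4a1 were Akr1b8, an aldo-keto reductase gene, at 0.13, Tubb6, a tubulin gene, at 0.22, and Olah, a thioesterase gene of fatty acid synthesis, at 0.33. Akr1b8 had signals of 1294, 26826 and 21806; Tubb6 was below the floor on the Ad-GFP array, so its FSK/PMA difference is a bound. For Egr2 the nearest were Havcr1 at 0.16, Magi3, a scaffold protein gene, at 0.25, and Cxcr4, the chemokine receptor gene, at 0.31. Cxcr4 was likewise below the floor on the Ad-GFP array. Havcr1 had signals of 338, 751 and 2049, also in 2 steps upward over the arrays.

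Egr1 had the closest neighbours, Pdp1, a pyruvate dehydrogenase phosphatase gene, at 0.0018, Oxnad1 at 0.0234 and Atp5f1d, a subunit gene of ATP synthase, at 0.0286. With 3 arrays a pattern is 2 numbers, and a small distance is a description of these arrays only.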

How the data were processed

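Per the submitters' processing notes, the authors made the deposited values with MAS5, as a linear intensity for each probe set (MAS5 version not given in the sources). The deposited columns had equal 2% trimmed means, close to 500. Here arrays were scaled to the same 2% trimmed mean, signals under 126 (the median of all values) were set to that floor, and log2 differences were taken; printed signals are as deposited. Each gene was read from its brightest probe set, by the mean signal. With 1 array per group, no test was made, and precision is limited by the number of arrays.

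The annotation gave 1 symbol for 20832 of 31099 probe sets, several for 436 and none for 9831. Entrez IDs (20764 matched) gave current symbols from the RefSeq table of GRCr8. Of 101 entries in 7 gene lists and 6 marker lists, 90 were on the array; housekeeping genes had medians of 0.25 with FSK/PMA, when 1 of 8 (Hprt1) was past 2-fold, and -0.05 with NFIL3. Members and lists were chosen with earlier results of these data known. All members are named, up to 4 genes per list with the largest difference, and the 3 genes nearest in pattern to Nr4a1, Nr4a3, Egr1 and Egr2. Protein sequences were not analysed here. The code was tested on simulated data. Python 3.11.15, pandas 2.3.3, R 4.3.3 and limma 3.58.1 (cyclic loess) were used.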

Additional observations from a re-analysis of the deposited data

How the results depend on the processing

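The 8 alternatives were scaling to a common median, quantile normalisation, cyclic loess, floors at the 25th and 75th percentiles, no floor with a pseudocount of 16, the mean of probe sets, and a preference for probe sets without cross-matching suffixes. Of the member values under them, 92 stayed within the technical spread and 19 moved by more. Many of the 92 could not move, so their number is no measure of stability. Preferring probe sets without cross-matching suffixes kept the same probe set for all 8 genes. A gene with none free of such a suffix kept a suffixed one. Both Egr2 probe sets (1387306_a_at and 1398266_a_at) carry one, so this setting could not test Egr2. The mean of probe sets can change only genes with several, and the lower floor only values with an array under 126. No difference of 2-fold or more turned its sign; the NFIL3 difference of Ier3, which was -0.05, was 0.0076 with quantile normalisation. Scaling to a common median moved the median NFIL3 difference of the 8 genes from -0.30 to -0.54. It put 2 of them, Nr4a3 and Nr4a2, past 2-fold lower, and 190 of all measured genes in place of 90. The number at least 2-fold higher with NFIL3 was 0 with the floor at the 75th percentile and with the mean of probe sets, which averages Egr2 with its dim probe set. Among all measured genes it was 36 and 97, in place of 126. With FSK/PMA, 5 of the 8 genes were past 2-fold with the floor at the 75th percentile, and 6 with no floor or with the mean of probe sets. Among all measured genes 420, 1315 and 590 were past 2-fold higher under these settings, in place of 698. Shares of all measured genes past 2-fold were not computed under the alternatives. The bound for Nr4a3 was at least 4.31-fold with the floor at the 75th percentile; with that at the 25th the ratio was 47.4-fold, over an unstimulated signal (49.7) that is not above the floor used in the text.

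Counts over all genes depended on the floor. With FSK/PMA, 698 were higher and 1072 lower; the floor at the 75th percentile gave 420 and 402, and no floor gave 1315 and 1750. With NFIL3, 126 were higher and 90 lower; scaling to a common median gave 48 and 190, the floor at the 25th percentile gave 545 and 236, that at the 75th gave 36 and 48, and no floor gave 902 and 552. The higher share of past-2-fold genes with FSK/PMA was 39.4%, and 50.1% with scaling to a common median and 51.1% with the higher floor. With NFIL3 it was 58.3%, and 20.2% with that scaling, 44.8% with quantile normalisation, 42.9% with cyclic loess, 69.8% with the lower floor and 42.9% with the higher. The causes of these moves were not tested. No paired analysis was possible because each group had 1 array. Signals near the floor limit what can be said of Egr3, Egr2 without stimulus and the dim probe sets.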
